A study of Mus musculus with 384 samples.

Results

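Of the 50000 accessible windows called in cells of a mouse breast tumor, 5731 lay away from promoters and held an AP-1 site. Each window is 500 bp of the mm9 genome around a summit of ATAC-seq signal. A window was taken as a member when its centre was over 1 kb from every transcript start site of the GENCODE vM1 annotation and its sequence held the TPA response element, the 7-letter word TGACTCA, on either strand. The word read on the opposite strand is TGAGTCA, so both choices of the central base were included. There were 36690 windows over 1 kb from start sites, called distal here, and the other 30959 of them held no such word.

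AP-1 is a dimer of basic leucine zipper proteins of the Fos and Jun families, joined by related factors such as ATF, BATF and MAF proteins. It binds the TPA response element, named after the phorbol ester that induces it, and carries growth factor, MAP kinase and stress signals to enhancers. AP-1 sites are a common feature of enhancers far from promoters in epithelial, stromal and activated immune cells.

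The cells came from MMTV-PyMT mice, in which the polyoma virus middle T antigen is driven by the mouse mammary tumor virus promoter, active mainly in mammary epithelium. A mouse was perfused with fixative at 3 months of age, and its tumor was digested and stained for EpCAM (an epithelial surface protein) and CD45 (a leukocyte surface protein). Single cells were sorted into the 96 wells of each of 4 plates for Pi-ATAC (named MI-ATAC in the labels), which reads open chromatin and the stain of the same cell. All wells formed 1 group, their reads were pooled before summits were called, and the list carried no score, count, stain or replicate, so no comparison below has a test. Shares are given with exact 95% Clopper-Pearson intervals, which cover counting error only, and with the number of chromosomes that show a difference. Depth per well is unknown from the list, and a window open in tumor cells cannot be told apart from one open in leukocytes of the same tumor. The study describes the collected cells as positive for EpCAM or CD45, and its EpCAM+ and CD45+ groups together make up all cells that passed its filter. Such a sort would leave out most fibroblasts and endothelial cells. Its methods describe index sorting with no choice by stain, and the list carries no stain, so this could not be checked by well here.

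The sequences around 12 member sites show what these windows hold. For each gene, the member within 50 kb of a start site whose AP-1 site lay nearest to the window's centre was taken, and the site is printed with 30 bases on either side (mm9, plus strand). Capitals mark the AP-1 word. The genes encode AP-1 subunits (Fosb, Junb, Jund), related repressors (Bach1, Bach2), a blood cell transcription factor (Runx1), a hyaluronan receptor (Cd44), a MAP kinase phosphatase (Dusp6), luminal epithelial markers (Epcam, Gata3), a myeloid factor (Irf8) and the hypoxia-induced glucose transporter (Slc2a1).
Fosb, chr7:19856056-19856122: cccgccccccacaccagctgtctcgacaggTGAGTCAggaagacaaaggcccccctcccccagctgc
Junb, chr8:87509556-87509622: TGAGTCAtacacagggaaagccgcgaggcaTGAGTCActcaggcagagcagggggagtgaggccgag
Jund, chr8:73203514-73203580: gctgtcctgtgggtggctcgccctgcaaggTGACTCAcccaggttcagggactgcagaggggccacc
Bach1, chr16:87713398-87713464: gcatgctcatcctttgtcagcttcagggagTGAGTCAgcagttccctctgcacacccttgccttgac
Bach2, chr4:32478400-32478466: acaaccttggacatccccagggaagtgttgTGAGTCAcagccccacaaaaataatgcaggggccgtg
Runx1, chr16:92818899-92818965: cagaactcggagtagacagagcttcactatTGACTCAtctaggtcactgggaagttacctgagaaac
Cd44, chr2:102718991-102719057: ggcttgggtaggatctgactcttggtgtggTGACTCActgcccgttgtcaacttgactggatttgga
Dusp6, chr10:98713574-98713640: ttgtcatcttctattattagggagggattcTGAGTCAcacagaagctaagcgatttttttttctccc
Epcam, chr17:88045664-88045730: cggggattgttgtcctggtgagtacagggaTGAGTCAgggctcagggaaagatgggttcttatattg
Gata3, chr2:9801350-9801416: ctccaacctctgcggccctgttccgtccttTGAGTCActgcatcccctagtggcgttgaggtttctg
Irf8, chr8:123258585-123258651: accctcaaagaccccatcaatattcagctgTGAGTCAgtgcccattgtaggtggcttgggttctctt
Slc2a1, chr4:118798223-118798289: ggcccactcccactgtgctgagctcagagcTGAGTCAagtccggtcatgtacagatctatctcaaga
The site at Junb lay 1.5 bp from the centre of its window, and another AP-1 word stood at the left end of the printed stretch. The site at Runx1 lay 8.50 bp from its centre, in an intron. The window printed for Fosb was nearer to the start site of Vasp, at 1092 bp, that for Junb was nearer to Hook2 and that for Jund to Lsm4, so a window within 50 kb of a gene need not belong to it.

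The AP-1 word was 1.95 times as frequent in distal windows as the reversed word, which has the same composition, and 2.24 times as frequent as the word with another centre. It was held by 15.6% of distal windows (5731 of 36690, interval 15.2 to 16.0). The same 7 letters in reversed order, ACTCAGT, were held by 8.00% (7.72 to 8.28) when sites overlapping an AP-1 word were left out. The ratio of 1.95 uses this share, and with those sites kept the share was 9.18% (8.89 to 9.48). The word with A or T in place of the central base, TGAATCA, was held by 6.98% (6.72 to 7.25). In windows within 1 kb of a start site the AP-1 word was held by 7.78% (1035 of 13310, 7.33 to 8.24), and by 13.5% of all 50000 windows. Thus 84.7% of the windows with an AP-1 word were distal, against 73.4% of all windows.

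The share was higher farther from start sites up to 1 kb and was lower in the most remote windows. It was 6.06% within 100 bp of a start site, 6.97% from 100 to 250 bp, 9.29% from 250 to 500 bp and 11.2% (10.00 to 12.5) from 500 to 1000 bp. Between 1 and 100 kb it ranged from 15.6 to 16.6%, with overlapping intervals. Over 100 kb away it was 11.9% (10.9 to 12.9). The reversed word stayed between 7.81 and 8.31% in all 6 distal classes, so the lower share over 100 kb was not seen for it. The members nearest the limit on the inside lay 1006 bp (Prdm10), 1012 bp (Anxa7) and 1013 bp (Src) from a start site, and the AP-1 windows just outside it lay at 1000 bp (Osbpl9), 995 bp (Ucn2) and 989 bp (Gm16621).

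Every chromosome held more AP-1 than reversed words. The AP-1 share was above that of the reversed word on 20 of 20 chromosomes and ranged from 9.83% on chromosome X to 18.1% on chromosome 5 (median 16.0, SD 1.77). Chromosomes 7, 8, 9 and X, where 41.5 to 51.8% of the peaks counted by their running numbers were kept in the list against 23.6 to 26.5% elsewhere, had AP-1 shares of 9.83 to 14.8%, all below the 15.5 to 18.1% of the other 16. The part of this difference in peak retention in the AP-1 share was not tested. These 4 chromosomes carried 1730 of the members (30.2%), and the AP-1 share, the position of sites, the shares of other words and the gene lists were also examined without them.

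**Figure D1:**
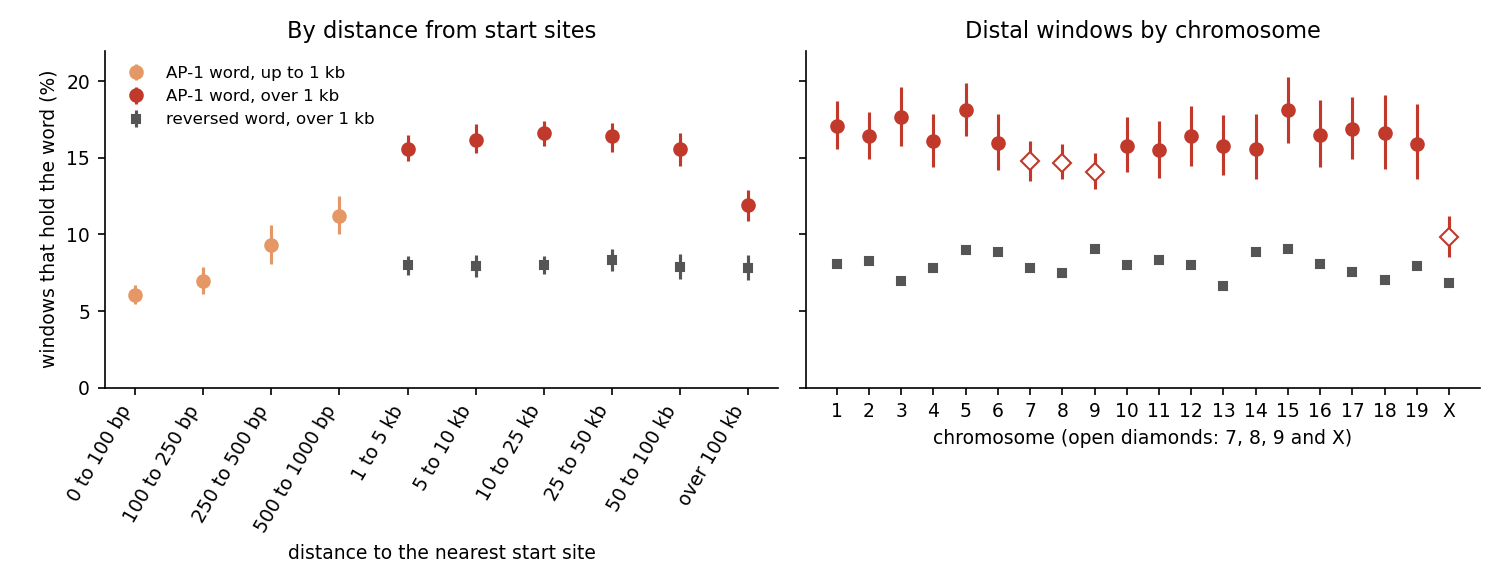
Share of windows that hold a word (y axis, %) by distance from the nearest start site (left) and by chromosome for distal windows (right). Filled circles and open diamonds show the AP-1 word with exact 95% intervals, and grey squares the reversed word. The AP-1 share is 6.06% at start sites, 15.6 to 16.6% from 1 to 100 kb and 11.9% over 100 kb, and is lowest on chromosome X at 9.83%.

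AP-1 sites stood near the summits. The members held 6611 pairs of a site and a window, at 6572 separate positions, since some windows overlap. Of these pairs, 24.8% (23.8 to 25.9) had the site's middle base within 50 bp of the window's centre, where even placement gives 20.2%. Within 100 bp it was 49.1% (47.9 to 50.4), against 40.5% for even placement. The reversed word had 19.2% (17.9 to 20.7) of its sites within 50 bp and 40.8% within 100 bp, and the word with A or T at the centre had 19.0 and 39.5%. AP-1 sites in promoter windows, within 1 kb of start sites, were also close to even placement, with 20.3% (18.0 to 22.8) within 50 bp. A site within 50 bp of the centre was present in 1563 members (27.3%).

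The profile was a broad rise rather than a narrow spike. In bins of 20 bp the AP-1 word had 8.39 to 9.54 sites per 1000 distal windows in the 10 bins within 100 bp of the centre. The outermost bins on the left and right had 4.85 and 5.34. Taken per length of sequence, there were 4.43 AP-1 words per 10 kb in the central 200 bp and 1.88 beyond 1 kb from the centre, a ratio of 2.36. The reversed word gave 1.71 and 1.62 per 10 kb (ratio 1.05) and the word with A or T at the centre 1.45 and 1.32 (ratio 1.09). Reversed words that overlap an AP-1 word were left out of these densities. The AP-1 word was commoner than both others 1 to 2 kb away from the summits, and the difference was larger at the centre. Over the whole genome beyond 1 kb from start sites it was also the commonest, with 402050 copies against 369064 and 379936. The part of this in the difference at 1 to 2 kb was not tested.

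**Figure D2:**
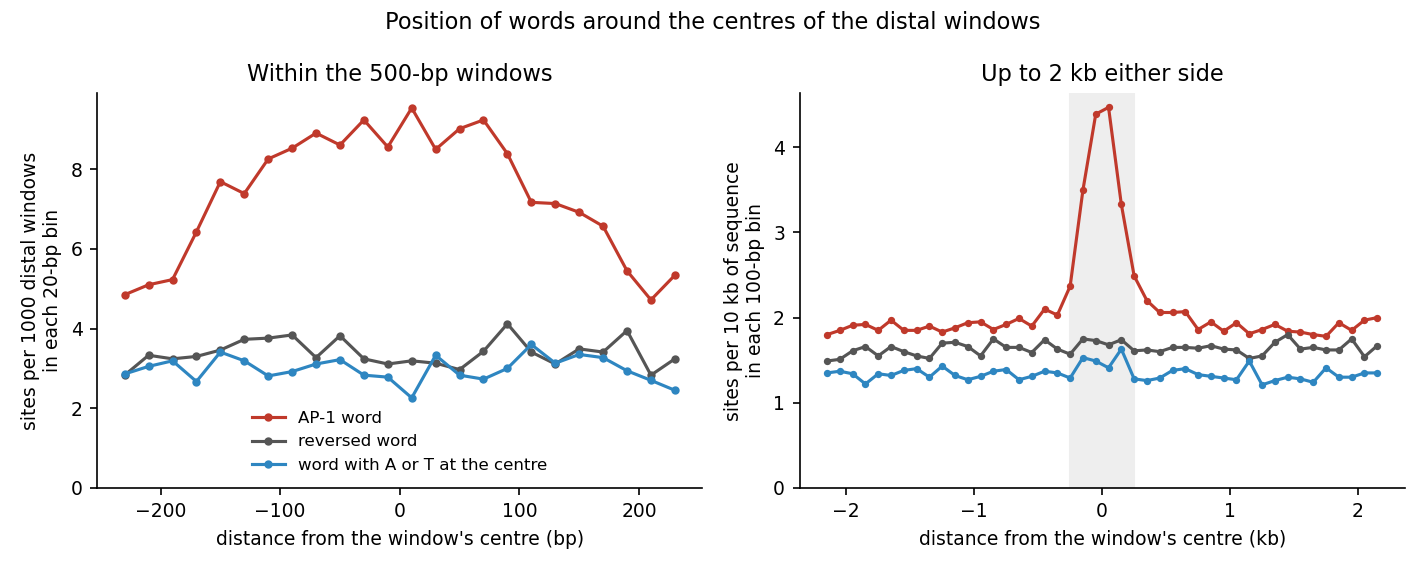
Number of words by distance from the centre of the distal windows, per 1000 windows in 20-bp bins (left) and per 10 kb in 100-bp bins out to 2 kb (right, the window shaded). The AP-1 word (red) peaks at 9.54 per 1000 windows near the centre and falls to 4.85 at the edge, while the reversed word (grey) and the word with A or T at the centre (blue) are nearly flat.

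Most members held a single site. There were 4948 members (86.3%) with 1 AP-1 word, 704 (12.3%) with 2, 74 with 3 and 5 with 4 or more. At least 2 sites were held by 13.7% of members (12.8 to 14.6), whereas 4.36% of the distal windows with the reversed word (3.65 to 5.17) held that word at least 2 times. The AP-1 word is also the commoner, in 15.6 against 8.00% of distal windows, and the part of this in the difference was not tested. The 880 neighbouring pairs of sites had a median start-to-start distance of 91.5 bp, and 32.4% of pairs were up to 50 bp apart. No single spacing dominated, the most frequent being 10 and 11 bp with 13 pairs each, then 12, 17 and 25 bp with 12 each.

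Of the 4 members with the most AP-1 words, 3 were short tandem repeats whose unit contained the word. The longest run of sites up to 100 bp apart is shown for each, at most 300 bases, with every AP-1 word in capitals (mm9, plus strand).
Itgam, chr7:135262584-135262849: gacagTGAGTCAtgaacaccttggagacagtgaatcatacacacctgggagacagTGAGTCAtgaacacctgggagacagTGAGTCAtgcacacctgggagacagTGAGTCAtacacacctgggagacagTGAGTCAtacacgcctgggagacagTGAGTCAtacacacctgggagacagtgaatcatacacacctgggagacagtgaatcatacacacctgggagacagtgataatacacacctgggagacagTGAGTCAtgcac
Sri, chr5:8065308-8065576: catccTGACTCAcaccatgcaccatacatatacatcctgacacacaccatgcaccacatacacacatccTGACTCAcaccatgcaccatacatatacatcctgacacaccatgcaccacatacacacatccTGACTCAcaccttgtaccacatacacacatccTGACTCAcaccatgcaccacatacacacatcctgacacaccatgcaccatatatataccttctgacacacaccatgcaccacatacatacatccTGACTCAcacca
Dera, chr6:137792041-137792142: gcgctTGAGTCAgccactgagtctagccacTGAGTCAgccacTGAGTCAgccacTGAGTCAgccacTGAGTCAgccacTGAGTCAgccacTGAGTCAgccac
Usp7, chr16:8811072-8811108: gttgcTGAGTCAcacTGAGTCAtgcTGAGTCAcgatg
The window in an intron of Itgam, the CD11b integrin of myeloid cells, held 8 sites, of which 7 are shown. They were spaced by the 25-base unit or multiples of it for most of the run, and 3 further units carried TGAATCA, the word with A at the centre. The intronic window of Sri held 7 sites, spaced by 62, 64, 32, 94 and 96 bp. The intergenic window 89193 bp from Dera also held 7, at a 12-bp unit after a first step of 25 bp. The window 18524 bp from Usp7 held 6 sites, of which 3 stood 10 bp apart and the others were farther from each other.

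How often a genomic AP-1 word was in a window went with the base next to it. The mm9 chromosomes 1 to 19 and X held 402050 AP-1 words over 1 kb from start sites, and 6595 of them (1.64%, 1.60 to 1.68) lay in a window. Of the reversed words 0.833% did and of the words with A or T at the centre 0.707%. The AP-1 percentage exceeded the reversed one on 20 of 20 chromosomes, by 1.45 to 2.53 times. Where the word had A or G before it and T or C after it, 2.09% (2.00 to 2.19) of sites were in windows, against 1.65% with that rule met on 1 side and 1.26% (1.19 to 1.32) with it met on none. The reversed word, sorted by the same rule, gave 0.844, 0.822 and 0.845%.

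Reading both strands outward showed which flanks differed. The base before the word, pooled over both strands, was G at 30.0% of the sites in members and 22.0% of the distal sites outside windows, and T at 12.9 and 21.5%. Shares of C (33.6 and 31.3%) and A (23.6 and 25.2%) were closer. Sites with G on 1 strand and C on the other had the highest percentage in windows, 2.57% (2.43 to 2.70), followed by G on both with 2.43% and A with G at 2.19%. Sites with T on both strands had the lowest, 0.705% (0.595 to 0.830), and A with T gave 0.936%. For the reversed word the same pairs spanned 0.548% (T on both) to 1.16% (C with G). Both words thus had the same pair at each end of the order, and the highest pair exceeded the lowest by 3.65 times for AP-1 and 2.12 times for the reversed word.

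A CpG near the site went with a higher share. AP-1 words with a CpG in the 10 bases on either side were in windows at 2.96% (2.83 to 3.11) and those without at 1.42% (1.38 to 1.46). The reversed word gave 1.25 and 0.771%. Over whole distal windows, the AP-1 share was 12.2% with 0 to 2 CpG, 15.6% with 3 to 5, 17.2% with 6 to 10 and 15.8% with more than 10. The median GC content was 49.0% in members and 48.0% in other distal windows, and both had a median of 6 CpG.

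The extended element of MAF proteins, the AP-1 word with TGC before it and GCA after it, was rare. Of its distal copies in the genome, 9 lay in windows (2.48%, 1.14 to 4.65). Words with this extension on 1 side only were in windows at 1.99% (1.81 to 2.19) and those without it at 1.62%. Members holding the full element, which BACH and NRF2 dimers with small MAF proteins also recognise, are shown for the 4 with the site nearest to the centre, named by the nearest protein-coding start site, with the element in capitals.
Cd276, chr9:58389841-58389877: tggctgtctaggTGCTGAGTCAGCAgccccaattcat
Dmrt2, chr19:25803778-25803814: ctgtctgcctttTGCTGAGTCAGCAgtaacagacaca
Esrrb, chr12:87848803-87848839: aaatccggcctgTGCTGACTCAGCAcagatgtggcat
Adamts7, chr9:90111213-90111249: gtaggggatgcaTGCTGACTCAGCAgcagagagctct
The window at Cd276, which encodes the immune checkpoint ligand B7-H3, was 1103 bp from the start site, and the 3 others were 3433 to 56858 bp away. The counts are too small to separate the full element from the AP-1 word alone, since the interval of 1.14 to 4.65% includes 1.62%.

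Of 24 words for other factors searched in the members, outside the AP-1 sites, 2 (8.33%) were more frequent than in other distal windows with exact intervals that did not overlap. The RUNX word TGTGGTT, bound by the RUNX factors of blood and epithelial cells, was in 14.9% of members (14.0 to 15.8), 12.9% of other distal windows (12.5 to 13.3) and 11.6% of all windows. It was higher in members on 15 of 20 chromosomes, and the ratio of 1.15 was 1.16 after the others were weighted to the members' GC content. The E-box CAGCTG, bound by basic helix-loop-helix factors, was in 30.7% of members (29.5 to 31.9), 27.0% of the others (26.5 to 27.5) and 26.7% of all windows, higher on 19 of 20 chromosomes, with a ratio of 1.14 that was 1.08 after GC weighting. Around windows with the reversed word the same ratios were 0.918 and 0.982.

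The other 22 words had overlapping intervals, and none was less frequent in members with intervals apart. The TEAD word ACATTCC, of the Hippo pathway's DNA-binding partners, was in 7.82% of members (7.14 to 8.54), 6.90% of the others (6.62 to 7.18) and 6.33% of all windows, higher on 15 of 20 chromosomes. The hypoxia response core TACGTG was in 5.93 and 5.30% (5.76% of all windows), the PU.1 word GAGGAAGT in 5.65 and 5.11% (4.93% of all windows) and the GATA word in 5.92 and 5.52%. The longer ETS word CCGGAAGT was in 1.05% of members (0.80 to 1.35) and 0.749% of the others (0.656 to 0.852), and in 4.35% of the AP-1 windows within 1 kb of a start site. The C/EBP word was level at 18.7 and 18.6%, forkhead at 6.68 and 6.54% and SOX at 7.05 and 6.82%. The IRF word was in 5.34 and 5.90%, CTCF in 1.19 and 1.42% and the cyclic AMP response element TGACGTCA, the other bZIP site, in 0.593 and 0.652% (1.37% of all windows).

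**Figure D3:**
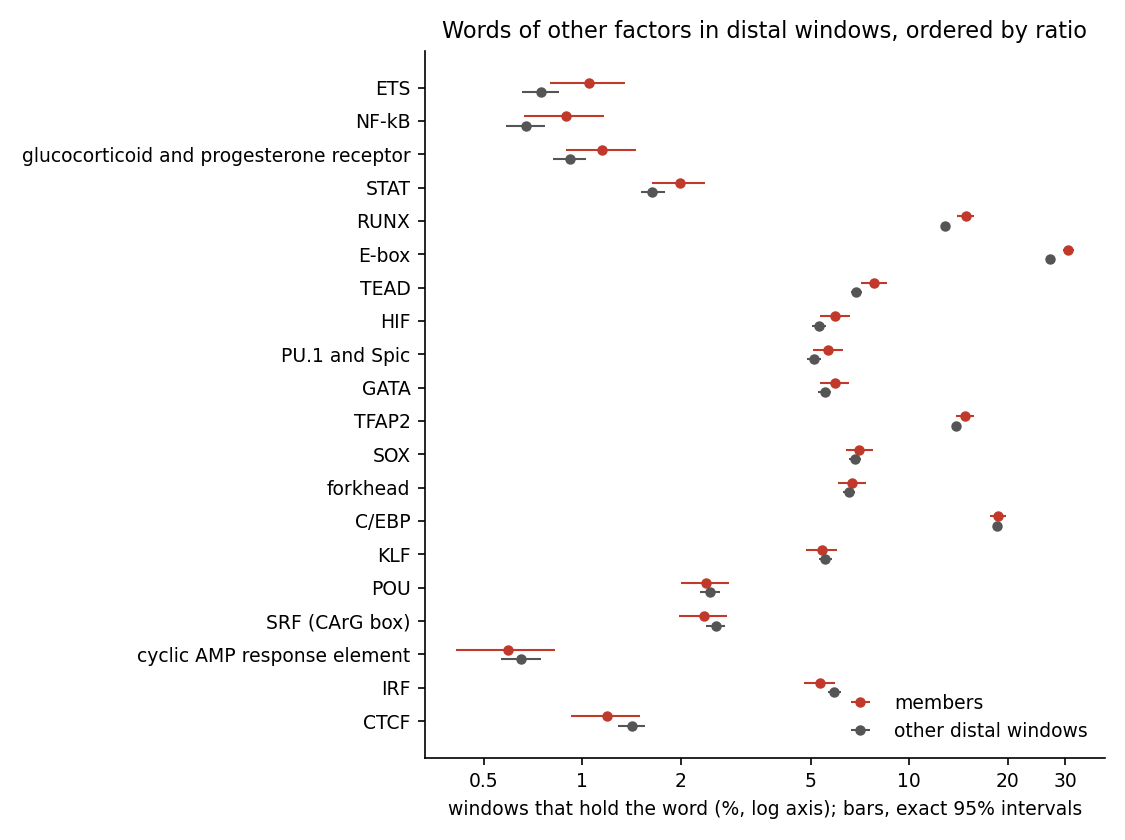
Share of members (red) and of other distal windows (grey) that hold each of 20 words found in at least 30 members, on a log axis with exact 95% intervals, ordered by the ratio of the shares. The intervals are apart for RUNX (14.9 and 12.9%) and the E-box (30.7 and 27.0%).

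The density of RUNX words near AP-1 sites was close to that elsewhere in the members. Within 50 bp of an AP-1 site there were 3.56 RUNX words per 10 kb of member sequence and 3.25 farther away in the same windows. Around the reversed word the densities were 2.47 and 2.71 per 10 kb. The shorter RUNX core TGTGGT, in the 10 bases on either side, accompanied 1.48% of AP-1 sites in members (97 of 6572, 1.2 to 1.80), 1.26% of AP-1 sites outside windows, 0.915% of reversed words in distal windows (0.609 to 1.32) and 0.725% of those outside. Read away from the site, the core followed after 1 base at 11 sites (0.167%) and after 2 bases at another 11, against 0.0609 and 0.0650% outside windows. After 3 bases, the most frequent gap, it followed at 24 sites (0.365%), below the 0.634% outside windows. At gaps of 0 and 4 bases the shares were level, 0.0609 and 0.107% against 0.0614 and 0.106%. With the core in the opposite orientation, it followed after 1 base at 12 sites (0.183%, against 0.0797% outside windows). After 2 bases it followed at 8 (0.122 against 0.0799%). After 3 and 4 bases it followed at 9 each (0.137%, against 0.0602 and 0.0706%), so higher shares were not confined to 1 orientation or to gaps of 1 or 2 bases. The 22 composite sites in the first orientation with a gap of 1 or 2 bases lay on 15 chromosomes. The 4 nearest to their window's centre are printed with AP-1 word, gap and RUNX core in capitals, named by the nearest protein-coding start site.
Srgap1, chr10:121341310-121341347: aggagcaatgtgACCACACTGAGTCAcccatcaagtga
Pex3, chr10:13395134-13395172: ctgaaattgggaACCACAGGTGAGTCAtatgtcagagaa
Errfi1, chr4:150173089-150173127: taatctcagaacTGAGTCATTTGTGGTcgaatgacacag
Comp, chr8:72891093-72891131: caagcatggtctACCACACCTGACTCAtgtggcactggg
The window 54911 bp from Errfi1, a feedback inhibitor of the EGF receptor, had the AP-1 word first and the core after it on the plus strand, and the other 3 had the core on the minus strand. The gaps were chosen for display after all gaps had been counted, and only the first orientation is shown. Counts of 11 carry wide counting error.

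Beside the other cores, GGAA of the ETS family stood in the 10 bases around 16.8% of AP-1 sites in members (15.9 to 17.7) and 14.3% outside windows, and around 15.9% of reversed words in distal windows (14.6 to 17.3). GATA was less frequent beside AP-1 sites in members, 5.01% (4.49 to 5.56), than outside windows, 8.85%, and beside reversed words in distal windows it was 6.50% (5.66 to 7.44). The GAAA core of IRF factors gave 15.5 and 18.2%, and 14.7% beside reversed words in distal windows. Reversed words outside windows had 15.1% for GGAA, 9.20% for GATA and 18.1% for GAAA. GATA and GAAA were thus less frequent in windows than outside beside the reversed word too. The TFAP2 word, of factors with a GC-rich site, had 4.35 copies per 10 kb within 50 bp of AP-1 sites and 3.21 beyond, and 3.39 and 3.05 per 10 kb around the reversed word.

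Without choosing motifs, the shares of all 2080 words of 6 letters were compared between members and other distal windows. The ratios ran from 0.529 to 1.25 with a median of 0.985, and 70 words (3.37%) had a ratio over 1.1. The 10 highest all held a CpG. They were led by CGTTGA (3.94 against 3.16%, ratio 1.25, higher on 13 of 20 chromosomes) and then AACGGC (5.10 against 4.10%, ratio 1.24, 15 of 20). The word CATCCG had 7.28 against 6.04% (ratio 1.21, 18 of 20) and CCCACG 12.4 against 10.5% (ratio 1.19, 19 of 20). Weighting to GC content left these 4 ratios at 1.24, 1.21, 1.16 and 1.13. The lowest ratios were also of CpG words, 0.529 for TCGCGA and 0.533 for CGCGCG, words of CpG islands, and the 604 CpG words together had a median ratio of 0.997.

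Members were placed in the genome much like other distal windows. The centre lay in an intron for 47.9% of members (46.6 to 49.2) and 46.1% of the others (45.5 to 46.7), between genes for 48.3 and 48.7%, and in an exon for 3.86% (3.37 to 4.39) and 5.17% (4.93 to 5.42). The median distance to the nearest start site was 17002 bp for members and 18216 bp for the others. Members were upstream of the nearest protein-coding start site in 46.1% of cases and the others in 44.6%. They overlapped another window more often, 5.01% (4.46 to 5.6) against 3.65% (3.44 to 3.86), and more often came from a peak with several summits, 1.36% (1.08 to 1.70) against 0.766% (0.671 to 0.869).

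Members were spread over many genes. A start site of a protein-coding gene lay within 50 kb of 70.0% of members and 65.6% of the other distal windows. Of 22350 protein-coding genes, 5872 (26.3%) had a member within 50 kb, and 3015 (13.5%) were the nearest protein-coding gene of at least 1 member within that distance. Of these, 2327 had 1 member, 485 had 2, and 21 had 5 or more. Within 50 kb of protein-coding start sites, members made up 16.5% of distal windows (4009 of 24332, 16.0 to 16.9), which is the level the gene lists below are set against.

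The gene with the most members was 4933407C03Rik, named Cmip in the RefSeq table, with 16 of its 50 nearest distal windows (32.0%). They ran from 47708 bp before to 121717 bp after the gene's start, 14 of them in introns. Irf2bp2, a corepressor, followed with 8 of 26. Both genes are on chromosome 8, where more of the peaks were kept. Runx1 had 6 of 9 and Smad7, an inhibitor of TGF-beta signalling on chromosome 18, 6 of 13. Tnfrsf1b, a receptor of tumor necrosis factor, had 6 of 18. Another 16 genes tied with 5 members each, the first of them in alphabetical order being Cd44 (of 10), Cdh13 and Col4a1 (of 12), Ets1 (of 16) and Iqgap1 (of 8). Without chromosomes 7, 8, 9 and X, Runx1, Smad7 and Tnfrsf1b had 6 members each, and Cd44, Mbp, Ptprj, Rbms1, Rftn1, Slc2a1, Tns3, Tpst2 and Trib1 tied with 5. Overlapping windows count separately here and in the lists below. Overlapping pairs were seen among the members of 4933407C03Rik, Smad7, Iqgap1 and Slc2a1, and at Rftn1 such a pair held the same single AP-1 site.

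The loci of AP-1 subunits differed among themselves. Fos, the founding subunit, had 7 distal windows within 50 kb and none held the word. Jun had no distal window there, and Fosl1 had 2 without the word. Fosb had 6 members of 13, Jund 4 of 16, Junb 2 of 12 and Fosl2 1 of 8. Over the 7 subunits this was 13 of 58 windows (22.4%, 12.5 to 35.3). Fosb was the nearest protein-coding gene of 3 of these members, Junb of 1 and Jund and Fosl2 of 0. Fosb is on chromosome 7 and Junb and Jund on chromosome 8, and without chromosomes 7, 8, 9 and X the share was 5.88%. The 6 windows at Fosb lay 6769 to 23157 bp upstream and 39320 and 40930 bp downstream of its start, and the member nearest to Junb, 2455 bp upstream, was nearer than any other at these genes.

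Related bZIP factors had the highest share among the 15 lists. Of their 75 distal windows within 50 kb, 22 were members (29.3%, 19.4 to 41.0), and 12 of 14 genes had at least 1. Bach1 and Bach2, repressors that compete for AP-1 and MAF sites, had 4 each, of 13 and 14. Maf, Maff, Mafk and Jdp2 had 2 each. Batf, Batf2, Batf3, Atf2, Atf3 and Nfe2l2 (NRF2, the oxidative stress factor) had 1 each. Jdp2 and Batf neighbour Fos on chromosome 12, so members stood at 24833 bp from a start site of Jdp2 and 25629 bp from Batf though none was within 50 kb of Fos.

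Genes known as AP-1 targets had members in 22 of 80 windows (27.5%, 18.1 to 38.6), at 11 of 23 genes. Cd44 had 5 of 10, with 4 of them in introns 9380 to 28073 bp after its start and the other 46789 bp upstream. Tgfb1 had 3 of 10, Dusp1 3 of 6, and Plaur (the urokinase receptor) 2. The matrix metalloproteinases Mmp3, Mmp9, Mmp10 and Mmp13 had 1 to 3 distal windows each and none with the word, and Il6 and Ccnd1 had no distal window. Feedback regulators of MAP kinase, which overlap this list at Dusp1, had 14 of 59 (23.7%, 13.6 to 36.6). Dusp6 had 3 of 10, Dusp2, Dusp4 and Spred2 2 each, and Dusp5 0 of 11.

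Hypoxia genes had members in 25 of 94 windows (26.6%, 18.0 to 36.7), at 13 of 22 genes. Slc2a1 had 5 of 9, lying 12607 to 32630 bp after its start, and 3 of the 5 also held the hypoxia response core. Over all 25 the core was in 4, against 5.93% of all members, and the 20 outside Slc2a1 had 1. Ddit4, a stress-induced inhibitor of mTOR, had 4 of 8, Bhlhe40 3 of 10 and Bnip3, of mitophagy, 2 of 2. Bnip3 was the nearest protein-coding gene of 0 of its 2 members, and Ddit4 of 2 of its 4. Ldha, Car9, Adm, Pdk1 and Lox had 0.

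Among cell type markers, those of luminal epithelium had members in 16 of 61 windows (26.2%, 15.8 to 39.1), at 10 of 24 genes, and the share within 10 kb was 11.8%. Epcam, the antigen used in the sort, had 4 of 8, of which 3 were 18964 to 26356 bp upstream and 1 covered an exon. Cdh1 (E-cadherin) had 3 of 9, Krt8 and Gata3 2 each, and Elf5, Krt19, Cldn3 and Cldn4 had 0. Markers of endothelium had 14 of 50 (28.0%, 16.2 to 42.5), with 3 each at Vwf and Flt1. Those of fibroblasts had 8 of 29 (27.6%, 12.7 to 47.2), of which 5 were within 50 kb of S100a4. Of these, 4 were 15961 to 18143 bp upstream of its start, with an overlapping pair among them. S100a4 was the nearest protein-coding gene of 0 of the 5, and without chromosome 3, which carries it, the fibroblast share was 13.0%. Basal epithelium had 4 of 28 (14.3%).

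For each leukocyte list the interval included the 16.5% of all protein-coding genes. Genes of all leukocytes had 20 members (17.5% of their distal windows, 11.1 to 25.8), 6 of them at Runx1, and Ptprc, which encodes CD45, had 0 of 4. Myeloid genes had 16 of 80 (20.0%), with 4 of 19 at Irf8, 3 of 6 at Tlr2 and 0 of 4 at Spi1. Genes of T and NK cells had 10 of 64 (15.6%) and B cells 3 of 32 (9.38%, 1.98 to 25.0). Of lists for other tissues, neurons had 2 of 30 (6.67%) and liver 1 of 29 (3.45%, 0.0873 to 17.8), and the neuron share was 0% without chromosomes 7, 8, 9 and X.

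The interval lay above 16.5% for related bZIP factors, AP-1 targets and hypoxia genes, and included it for the other 12 lists. These intervals count windows at the same gene as separate, and include windows that are nearer to a gene outside the list. Cd44 gave 5 of the 22 members near AP-1 targets, and Slc2a1 5 of the 25 near hypoxia genes. Windows near listed genes are few and the lists were not chosen blind to these data, so the order of lists is a description. At Runx1 3 of the 6 members held the RUNX word, against 14.9% of all members. Near leukocyte genes 5 of the 20 members did, a count that includes the 3 at Runx1, and the rest were at Ikzf1 and Dock2.

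**Figure D4:**
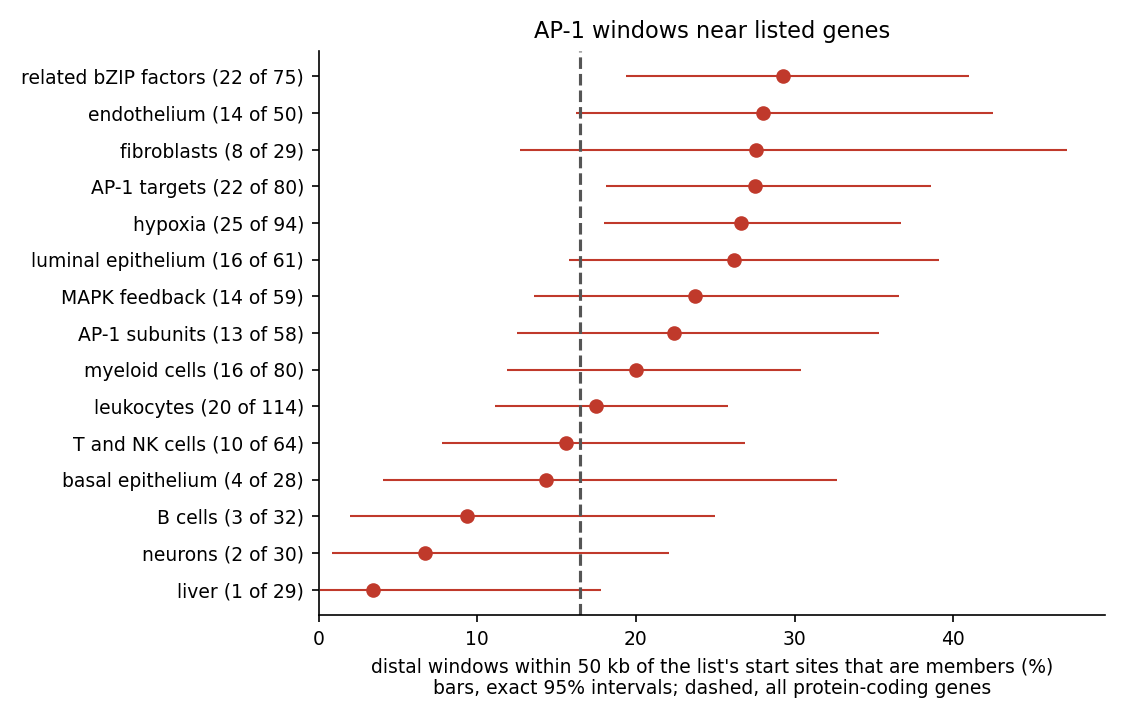
Members as a percentage of the distal windows within 50 kb of the start sites of 15 gene lists (x axis), with exact 95% intervals and counts in the labels, and the 16.5% of all protein-coding genes as a dashed line. Related bZIP factors (29.3%) stand highest and liver genes (3.45%) lowest.

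**Figure D5:**
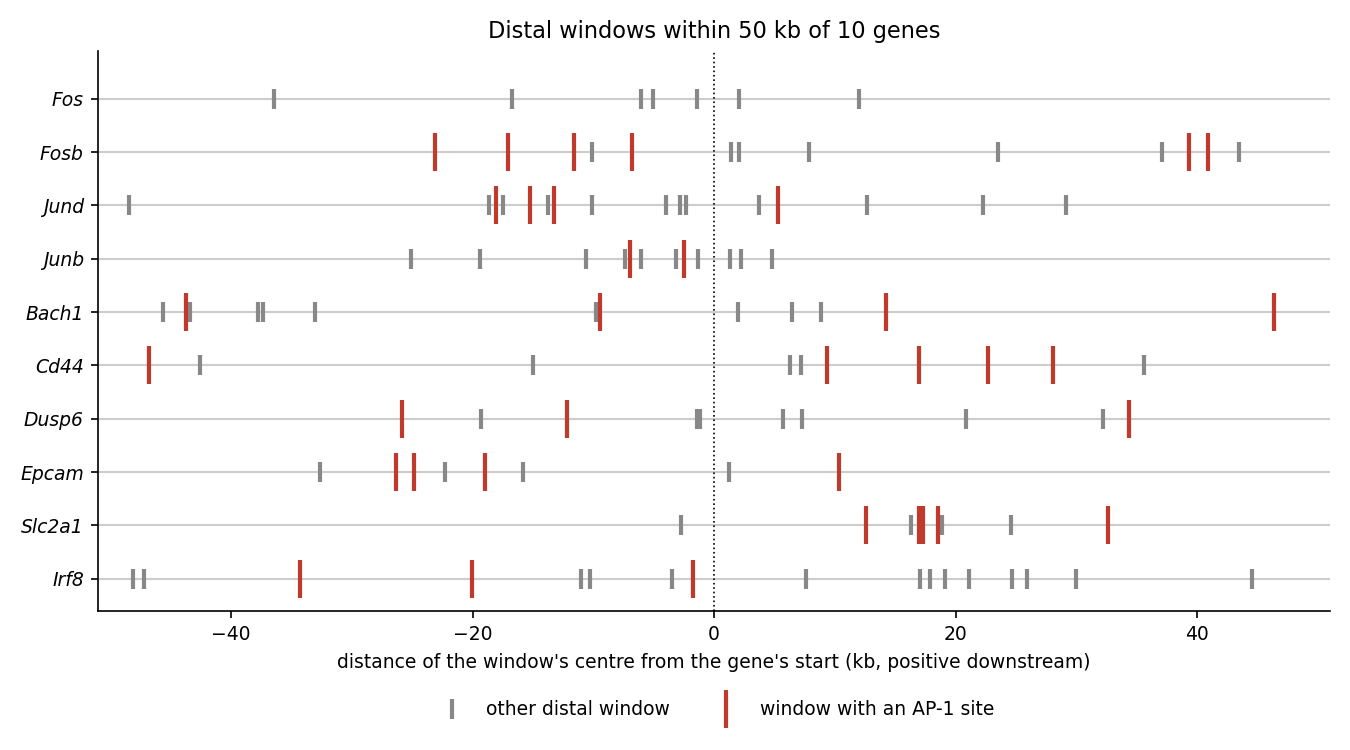
Centres of distal windows within 50 kb of the start of 10 genes, by distance in kb (positive downstream), as red marks for members and short grey marks for the others. Fos has 7 windows and no member, Fosb 6 members and Epcam 4. A further member of Irf8, 50619 bp after the gene's start, is counted in the text from another start site and is off the plot.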

How the data were processed

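Per the labels and the study's methods, the authors aligned the reads against mm9 (Bowtie2 2.1.0) and dropped duplicate (Picard 1.79), low-quality and mitochondrial reads. They pooled all wells, called summits with MACS2 at q 0.05 (version not given in the sources used here), widened each to 500 bp and kept the 50000 with the lowest q. The deposited values are positions only, with no score, count or depth. A list kept by q favours strong windows, and open sites that were not kept are not seen. On chromosomes 7, 8, 9 and X, 41.5 to 51.8% of peaks were kept, against 23.6 to 26.5% elsewhere. These chromosomes come last in the order of the peaks' running numbers. Whether the same limit of q held on all chromosomes was not tested, so weaker sites may be seen on some of them.

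Windows were annotated with GENCODE vM1 on the same build. Words were searched on both strands, with AP-1 sites masked before other words were sought. The 238 listed genes were matched by symbol (235) or an older symbol (3). Genes were named from the lists, as the 10 with most members nearest within 50 kb (with and without chromosomes 7, 8, 9 and X), by the 5 windows with most sites and by the 10 leading 6-letter words. Some of these genes and windows stay in the counts but are not reported here by name or sequence. The members and lists were chosen with earlier results of these data known. Short cores and CpG beside sites, word densities and the genes whose sequences are printed were chosen after seeing the data, as was leaving out reversed words that overlap an AP-1 site. Python 3.11.15 with scipy gave the intervals, and the counting steps were tested on simulated data.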

Additional observations from a re-analysis of the deposited data

How the results depend on the processing

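The share of distal windows with the AP-1 word (15.6%), the excess of sites within 50 bp of the centre over even placement (1.23 times), the 17 of 24 words with a higher share in members and the member share near protein-coding start sites (16.5%) were recomputed under 29 to 31 alternatives each. Leaving out 1 chromosome at a time gave 15.5 to 16.0%, 1.21 to 1.25 times, 16 to 18 words and 16.3 to 16.7%. Without chromosomes 7, 8, 9 and X the share was 16.6% and that near start sites 17.4%, and with windows over 500 bp from start sites the latter was 16.0%. Requiring A or G before and T or C after the word, which selects fewer sites, gave 4.82%, 1.29 times and 4.97%. Requiring the whole site in the central 250 or 100 bp gave 9.59 and 3.99%. The number of words stayed between 16 and 20. The RUNX ratio ran from 1.1 to 1.29 and the E-box ratio from 1.08 to 1.18 over 31 alternatives each, all above 1. Of 743 word ratios, 727 stayed within their counting interval, and of 435 list shares 416 did. Most of these alternatives left out 1 chromosome, which removes a small part of the windows, so such totals say little. With the AP-1 word itself, the share for AP-1 subunits was 5.88% without chromosomes 7, 8, 9 and X, 15.6% without chromosome 7 and at most 25.5%, and that for luminal genes ran from 11.8% (within 10 kb) to 30.8% (over 5 kb from start sites). The single liver member is on chromosome 2, and without it the share was 0%. Keeping reversed words that overlap an AP-1 site, an alternative added after seeing the data, gave 9.18% in place of 8.00%. No paired analysis was possible because the list has no replicates. With no depth or score in the list, weak sites and differences between the stained cell types could not be examined, and the small number of windows limits the gene lists.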
